A study of Mus musculus with 12 samples.

Results

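A set of 7 genes for ion channels, channel subunits and functionally related membrane proteins were followed in sorted mouse spinal motor neurons. They were chosen by symbol: Kcnip4, Kcnb2, Cacna1e, Cacna2d1, Pkd2l1, Chrm2 and Slc4a4. These are 7 of the 205 different genes in 3 deposited tables, and each table keeps only genes that the authors selected as different between a pair of groups. Control levels were compared in 64 genes, of which 3 were members. The thoracic mutant table held 130 genes with all 7 members, and the brachial mutant table held 62 genes with 1 member, Kcnip4.

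The libraries came from embryos at E12.5 of a highly mixed C57BL/6 background, and all carried the Hb9::GFP reporter that marks motor neurons for sorting. Control littermates were compared with embryos of the genotype PbxMNdelta, a Pbx mutant. Pbx proteins are homeodomain factors that bind DNA together with Hox proteins. The sources used here do not give its alleles or what drives the mutation. Brachial and thoracic cord each gave 3 control and 3 mutant libraries, named A, B and C, from 9 pooled controls and 9 pooled mutants in all. How the pooled embryos were divided over libraries is not stated, so a p-value here covers the spread among these libraries alone, which may be technical. If 1 step of the values is 1 read, the listed genes held 14181 to 81370 reads per library and table. Of 9 general motor neuron markers, 1 was listed in the thoracic table (Ebf2) and 4 in the brachial one (Chat, Slc5a7, Prph and Ebf2), each above 30 normalized counts in every library. The levels of the other markers, Mnx1 and Isl1 among them, were not analysed here.

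Motor neurons set their firing by the balance of potassium and calcium currents. Voltage-gated potassium channels repolarize the membrane and space out action potentials. Voltage-gated calcium channels admit the calcium that drives transmitter release and, in embryonic neurons, gene expression and growth. Each such channel has a pore-forming subunit and auxiliary subunits that control its traffic and gating. Muscarinic receptors and bicarbonate transporters are not channels, but both act on excitability, the first through G proteins and the second through pH.

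In thoracic motor neurons, all 7 members were lower in the mutant and passed the limma test (adjusted p under 0.05 over the 130 listed genes). Of all listed thoracic genes, 75.4% were called lower, so the direction of the members is that of most of the table. The mutant level ranged from 15.8% of the control mean for Pkd2l1 to 72.0% for Kcnb2. The median log2 difference of the 7 members was -1.05, beside -0.67 for the 130 listed genes. Only 103 of the 130 were lower, against all of the members, so these medians are of unlike sets. The authors selected these genes on these libraries, so the p-values describe the spread between replicates and give no independent evidence of a difference. Each library holds RNA of many cells, and fewer cells of a type and less RNA per cell cannot be told apart.

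**Figure D1:**
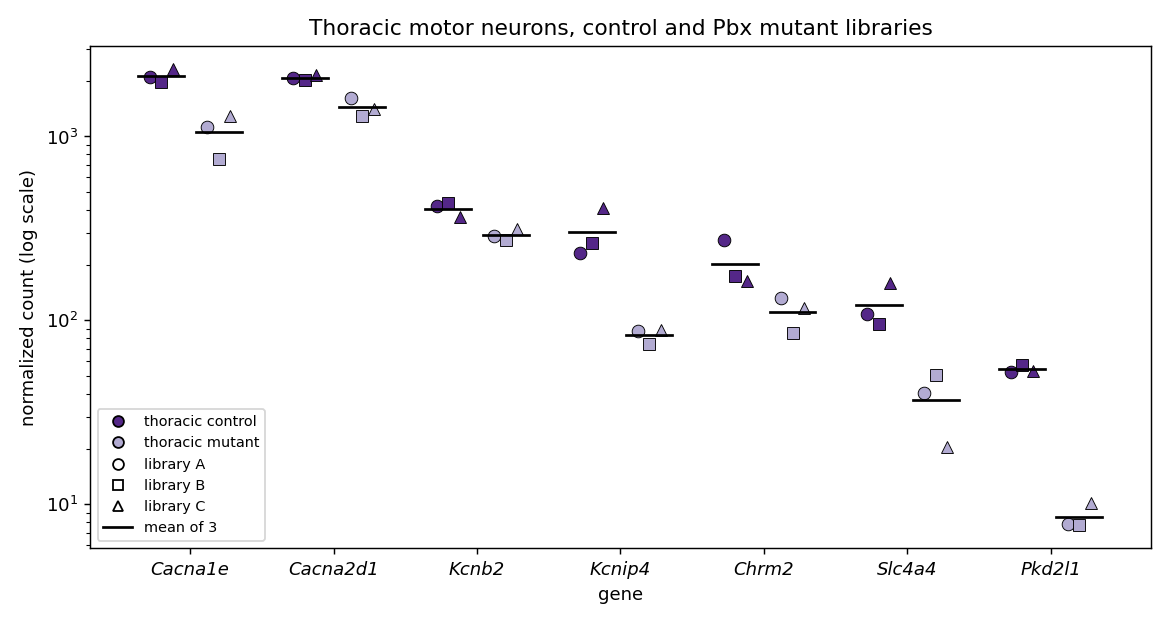
Normalized counts (log axis) of the 7 members in the 3 control and 3 mutant thoracic libraries, 1 point per library and a bar for each group mean. For each gene all control points lie above all mutant points, with the widest gap for Pkd2l1 (means of 54.3 and 8.59) and the narrowest for Kcnb2.

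Among the potassium channel genes, Kcnip4 encodes a calcium-binding cytoplasmic subunit of the A-type channels that delay firing. Its normalized counts in libraries A, B and C were 232.6, 265.2 and 407.8 for thoracic controls and 87.3, 74.7 and 88.9 for thoracic mutants. The groups did not overlap, and control C stood above the other controls while the mutant libraries lay close together. Kcnip4 was 3.61-fold lower in the mutant, and the difference was -1.81 on the log2 scale (SE 0.23, limma adjusted p = 0.00101). Without control C the difference was -1.57. Kcnb2, the pore-forming subunit of a slow delayed rectifier, read 416.4, 435.0 and 365.1 in controls (A, B, C) and 287.9, 274.6 and 312.7 in mutants. The highest mutant library lay just under the lowest control library, and the log2 difference was -0.47 (SE 0.14, limma adjusted p = 0.0168). This call was lost without mutant A (difference -0.46, adjusted p = 0.0559) and without control B (-0.42, adjusted p = 0.0528).

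Of the calcium channel genes, Cacna1e encodes the pore of the R-type channel, and Cacna2d1 encodes an auxiliary subunit that carries channels to the presynaptic membrane. Cacna1e read 2108, 1978 and 2333 normalized counts in the controls, against 1133, 753.6 and 1294 in mutants A, B and C. All controls were higher than all mutants, and mutant B was the lowest. The control mean of 2140 ± 180 stood against a mutant mean of 1060 ± 277 (SD, n = 3 each), which is 2.02-fold lower, and the log2 difference was -1.05 (SE 0.22, limma adjusted p = 0.00485). Cacna2d1 read 2079, 2023 and 2164 in controls and 1625, 1300 and 1413 in mutants. Its control libraries were tightly grouped, with a coefficient of variation of 3.38%, against 11.4% in the mutants. Cacna2d1 was lower by a smaller step than Cacna1e, 1.44-fold (log2 difference -0.54, SE 0.14, limma adjusted p = 0.0109). The 95% interval was -0.88 to -0.20 for Cacna2d1 and -1.57 to -0.53 for Cacna1e, and the difference between the genes was not tested.

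Pkd2l1 encodes a polycystin-family cation channel, best known in spinal cord from neurons that contact the cerebrospinal fluid. It read 52.8, 57.2 and 52.8 normalized counts in the thoracic controls, against 7.85, 7.69 and 10.2 in mutants A, B and C. The groups were far apart, and Pkd2l1 was 6.32-fold lower in the mutant (log2 difference -2.60, SE 0.16, limma adjusted p = 7.03e-05). It ranked 4 among the 103 lower genes of the table by size of difference. If 1 step is 1 read, this rests on 164 reads over the 3 control libraries and 26 over the 3 mutant libraries.

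Chrm2, an inhibitory muscarinic acetylcholine receptor, read 273.7, 173.5 and 164.0 in the thoracic controls, against 132.6, 85.7 and 116.5 in mutants A, B and C. Control A was well above the other controls, and the groups did not overlap. The log2 difference was -0.85 (SE 0.26, limma adjusted p = 0.0166), and it was -0.62 without control A. The call was lost without mutant B, the lowest library (difference -0.67, adjusted p = 0.0501). Slc4a4, a sodium and bicarbonate cotransporter that moves acid equivalents across the membrane, read 108.5, 95.4 and 159.5 in controls and 40.1, 50.5 and 20.4 in mutants. Control C was the highest of the controls and mutant C the lowest of the mutants. Slc4a4 was 3.27-fold lower (log2 difference -1.76, SE 0.35, limma adjusted p = 0.00436), and the difference was -1.38 without mutant C.

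The spread between libraries differed from member to member. Mutant B was the lowest mutant library for 6 of the 7 members, all but Slc4a4, and for 78 of the 130 listed genes. Control C was the highest control library for 4 of the 7, namely Kcnip4, Slc4a4, Cacna1e and Cacna2d1, and for 65 of the listed genes. In controls the coefficient of variation was 3.38% to 8.93% for Cacna2d1, Pkd2l1, Cacna1e and Kcnb2, and 28.0% to 30.9% for Slc4a4, Chrm2 and Kcnip4. The 3 genes with the wide control spread thus include 2 that were also among the 3 largest falls.

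Levels were set between members only per kilobase of exon in the GENCODE annotation of GRCm38, which is not the build that the submitters' notes name. The length is that of all annotated exons together. The transcripts in use and the coverage of the amplified cDNA along them were not examined, so the order between genes depends on this length. In thoracic controls the order of normalized counts per kilobase was Cacna2d1 (168 ± 5.69), Cacna1e (84.8 ± 7.13), Kcnip4 (83.2 ± 25.7), Chrm2 (33.7 ± 10.0), Kcnb2 (26.7 ± 2.39), Pkd2l1 (15.4 ± 0.72) and Slc4a4 (11.2 ± 3.13; SD, n = 3 each). The libraries of Cacna1e and Kcnip4 overlapped, as did those of Chrm2 and Kcnb2, and all other neighbours in this order were separate. In the mutant, Kcnip4 stood at 23.1 per kilobase and Cacna1e at 42.0 (SD of 2.14 for Kcnip4, n = 3 each; Cacna1e from 29.9 to 51.3), with no overlap between their libraries. Kcnip4 and Chrm2 share 267 and 142 exon bases with antisense transcripts in this annotation, and since the use of strand in counting is not given, their counts may include reads of those transcripts.

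Kcnip4, Pkd2l1 and Slc4a4 were also listed between control levels, and each of these 3 was called higher in thoracic than in brachial motor neurons. Of the 64 genes in that table, 62.5% were called in this direction. Kcnip4 read 78.7, 154.6 and 95.8 normalized counts in the brachial controls and 202.1, 229.9 and 354.2 in thoracic controls. The levels did not overlap, with brachial B nearest to the thoracic range, and brachial minus thoracic was -1.27 on the log2 scale (SE 0.34, limma adjusted p = 0.0116). Pkd2l1 read 12.4, 8.13 and 4.56 in brachial controls and 45.9, 49.6 and 45.9 in thoracic controls. The thoracic libraries lay close together, while the brachial values rest on 22 reads in all if 1 step is 1 read. The difference of -2.53 (SE 0.35, limma adjusted p = 0.00138) is a 5.64-fold higher thoracic mean. Slc4a4 read 46.1, 49.97 and 22.8 in brachial controls and 94.3, 82.7 and 138.5 in thoracic controls, again without overlap. Its difference was -1.44 (SE 0.37, limma adjusted p = 0.0104), and it was -1.09 without brachial C, the lowest library. The tables do not list Kcnb2, Cacna1e, Cacna2d1 and Chrm2 between control levels, and their brachial levels were not analysed here.

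The control-level and thoracic mutant comparisons share the 3 thoracic control libraries, so their values are only set side by side. Relative to thoracic controls, Kcnip4 stood at 41.9% in brachial controls and 27.7% in thoracic mutants. The corresponding values for Slc4a4 were 37.7% and 30.6%, and those for Pkd2l1 were 17.7% and 15.8%. The same 3 genes held the 3 largest falls among the members in the thoracic mutant. Between control levels no listed difference was smaller in size than 0.97 (Slc24a2), while thoracic falls were listed down to -0.29 (Ebf1). Genes of the first comparison were thus selected for large differences from the same thoracic controls. Of all listed genes, 21 were in both comparisons, of 64 between control levels and 130 in the thoracic mutant. Of the members, 3 were in both, of 3 and 7. Whether the members stand apart in this overlap was not tested.

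**Figure D2:**
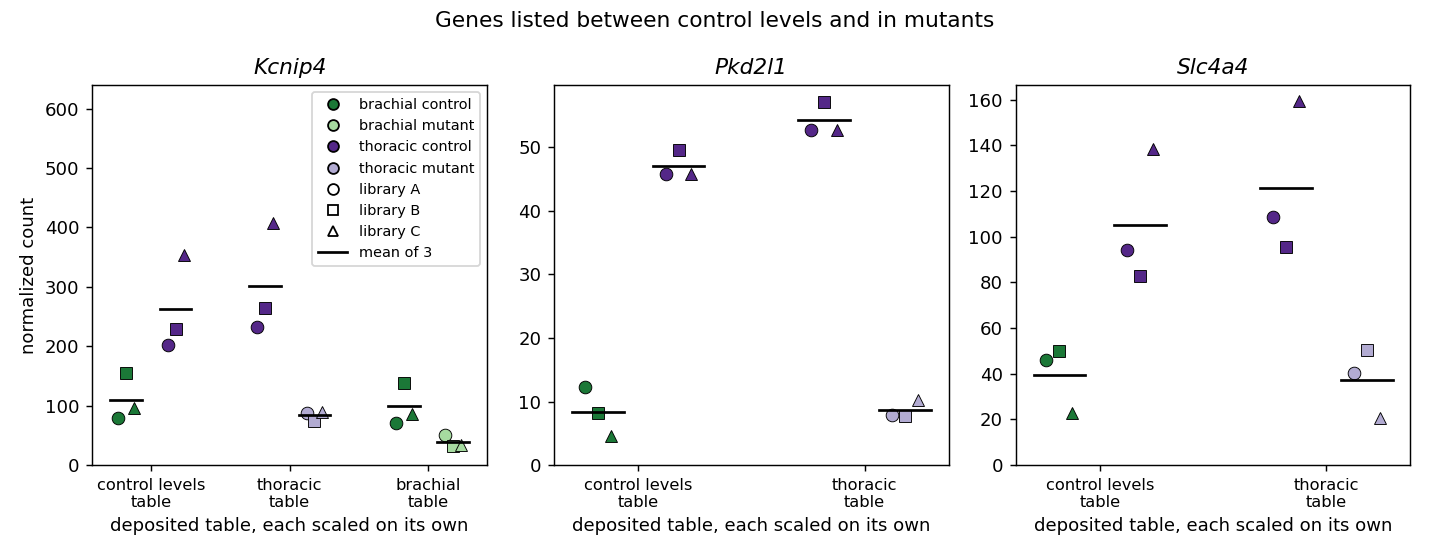
Normalized counts of Kcnip4, Pkd2l1 and Slc4a4 in every table that lists them, 1 point per library and a bar for each group mean. Each table was scaled on its own, so levels are compared within a table, where thoracic controls lie above brachial controls and above thoracic mutants for all 3 genes.

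In brachial motor neurons, Kcnip4 was lower in the mutant too. It read 70.9, 138.8 and 86.5 normalized counts in the controls, against 50.7, 31.6 and 34.1 in mutants A, B and C. The groups did not overlap, and control B stood above the other controls. Kcnip4 was 2.55-fold lower, or -1.31 on the log2 scale (SE 0.28, limma adjusted p = 0.00438), and 82.3% of the 62 listed genes were called lower. Without control B the difference was -1.04. Only 2 genes were listed both between control levels and in the brachial mutant, Kcnip4 and Cyp26b1, and the thoracic mutant table held both. Kcnip4 passed in each of the 3 tables, but within each table so did nearly every gene the authors listed there. This was 63 of 64 genes between control levels, 123 of 130 in the thoracic mutant and 61 of 62 in the brachial mutant. The tables also share control libraries, so the 3 calls are not separate evidence. The fall was -1.81 at the thoracic and -1.31 at the brachial level, and the limma interaction gave thoracic minus brachial -0.50 (SE 0.39, 95% interval -1.36 to 0.36, adjusted p = 0.858 over the 30 genes of both mutant tables). The interval includes 0 and differences in either direction. This test called 0 of the 30 genes, and 0 had an unadjusted p under 0.05. It covered only genes that the authors selected at both levels. Genes listed at 1 level, the other members among them, were left out, so the result does not show like effects at both levels.

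**Figure D3:**
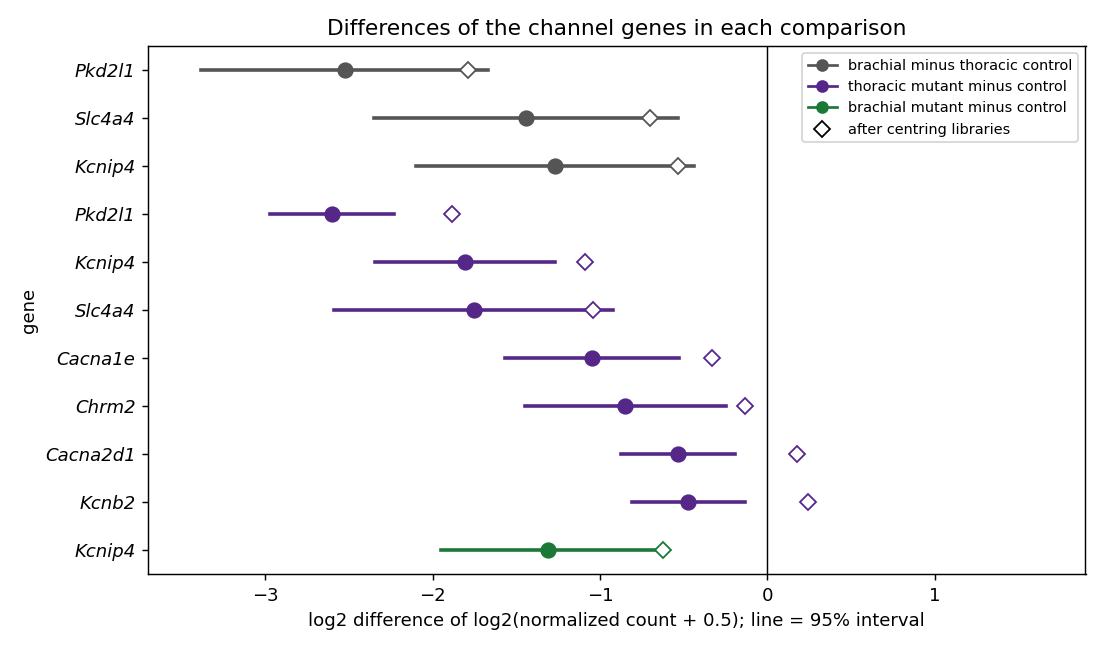
Log2 differences of the members in each comparison with 95% intervals from limma (filled points and lines), and the same differences after centring each library on its median listed gene (open diamonds). All filled points lie below 0, and the diamonds of Cacna2d1 (0.18) and Kcnb2 (0.24) lie above it.

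The libraries of the compared groups did not overlap for any member in any table. This held for 98.4% of the genes listed between control levels, 97.7% of those in the thoracic mutant table and 96.8% of those in the brachial one, so it does not set the members apart. When each library was centred on its median listed gene, every thoracic difference moved up by 0.71 on the log2 scale. That median is taken over genes selected as different, and 103 of the 130 thoracic genes were lower. So were 52 of 62 brachial mutant genes and 40 of 64 control-level genes. With such a reference, the makeup of the lists and the scaling of the libraries cannot be told apart, so centring cannot check the scaling. Pkd2l1 (-1.89) and Kcnip4 (-1.09) still passed in the thoracic mutant. Slc4a4 (-1.04), Cacna1e (-0.33) and Chrm2 (-0.14) stayed negative without passing, and Cacna2d1 and Kcnb2 turned positive without passing. Between control levels this moved differences by 0.74, and Pkd2l1 (-1.79) passed while Slc4a4 (-0.70) and Kcnip4 (-0.53) did not. In the brachial mutant it moved them by 0.68, and Kcnip4 (-0.62) did not pass.

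**Figure D4:**
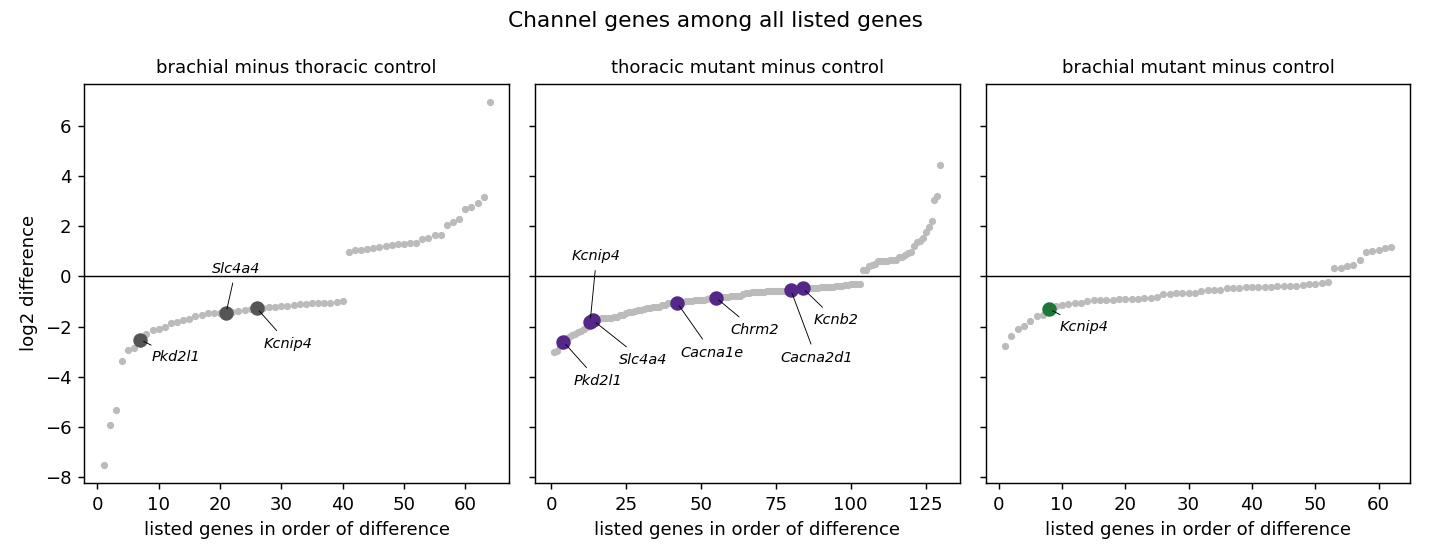
Log2 differences of all listed genes in each table, in order from the largest fall to the largest rise, with the members marked and named. In the thoracic panel the members spread from place 4 (Pkd2l1) to place 84 (Kcnb2) of 130.

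The rest of the channel repertoire was largely outside the tables. Of 291 genes in 10 lists of channels, receptors and acid-base transporters, 8 were listed in at least 1 table, the 7 members and Chrnb4. The voltage-gated potassium list gave 1 of 40 genes (Kcnb2), the potassium auxiliary list 1 of 17 (Kcnip4), the calcium list 2 of 26 (Cacna1e and Cacna2d1) and the TRP and polycystin list 1 of 32 (Pkd2l1). The acetylcholine receptor list gave 2 of 21 (Chrm2 and Chrnb4) and the acid-base list 1 of 28 (Slc4a4). No gene of the sodium channel, other potassium channel, HCN, CNG and chloride, or GABA, glycine and glutamate receptor lists was in a table. The listed genes were all called lower in the first-named group of each contrast (brachial, or mutant), and none was called higher, in tables where 62.5% (control levels), 75.4% (thoracic mutant) and 82.3% (brachial mutant) of all listed genes were called lower. Chrnb4, a nicotinic receptor subunit, read 125.6, 126.3 and 154.4 in brachial controls and 58.3, 88.4 and 73.1 in brachial mutants. All controls were above all mutants, and the log2 difference was -0.90 (SE 0.18, limma adjusted p = 0.00364).

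Listed markers of preganglionic motor neurons, the thoracic cells that drive sympathetic ganglia, had the direction of the members and of most listed genes. Of the 6 genes in that list, Nos1, Zeb2 and Mme were in the thoracic mutant table. All 3 were called lower, beside 75.4% of the table. The levels of Bmp5, Fign and Tac1 were not analysed here. Nos1, Zeb2 and Mme summed to 2614 to 3476 normalized counts in thoracic controls and 1442 to 1761 in mutants. Most of this sum was Zeb2, which was 1.55-fold lower in the mutant, while Nos1 was 4.06-fold and Mme 7.53-fold lower. Between control levels, Nos1 and Mme summed to 546 to 778 in thoracic and 111 to 129 in brachial libraries, the direction called for 62.5% of that table. In the brachial mutant, Zeb2 was the one listed gene of the 6, at 882 to 1058 in controls and 648 to 755 in mutants. Of the 9 general motor neuron markers, the 4 in the brachial mutant table were called lower, in a table where 82.3% of genes were, and summed to 1275 to 1748 in controls and 847 to 1023 in mutants. The thoracic mutant table listed 1 of the 9, Ebf2, which was called lower beside 75.4% of the table and read 642 to 786 in controls and 452 to 489 in mutants. Between control levels 0 of the 9 were listed. Of the 9 markers of cerebrospinal fluid-contacting neurons, Pkd2l1 alone was listed, and the levels of Gata2, Gata3 and the other markers were not analysed here. Nes, of the 14 progenitor and glial markers, was 529.7 to 712.0 in thoracic controls and 409.2 to 438.4 in mutants. Postn, of the 12 mesenchyme and vessel markers, was 26.4 to 41.6 and 5.11 to 9.89. Evx2, of the 12 interneuron markers, was 381.5 to 686.5 in thoracic and 185.9 to 325.4 in brachial controls. No gene of the 7 dorsal root ganglion markers was listed. The part of these cell types in the results was not tested.

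For each member the 2 listed genes with the most similar profile over the 6 libraries of a table were found by the root mean square distance of gene-centred log2 values. Kcnip4 lay nearest to Sytl2 (0.16) and Man1a (0.21) in the thoracic mutant table, where the median distance to 122 genes was 0.66. Between control levels the same 2 genes came out, Man1a (0.15) and Sytl2 (0.19), in libraries that the tables partly share. Cacna1e was nearest to Doc2b (0.07) and Pappa (0.15), Cacna2d1 to Klf6 (0.08) and Spry2 (0.09), and Kcnb2 to Rab3ip (0.06) and Cntn2 (0.09). Pkd2l1 was nearest to Cyp26b1 (0.27) and Creb5 (0.32) in the thoracic mutant and to Gpr149 (0.32) and Nos1 (0.35) between control levels. Chrm2 had Hfm1 (0.23) and Bean1 (0.24) as its nearest genes. Slc4a4 had Postn (0.31) and Cartpt (0.39) in the thoracic mutant and Dnah5 (0.25) and Adamts9 (0.28) between control levels. In the brachial mutant table Kcnip4 was nearest to Dkk3 (0.22) and Megf11 (0.32). These distances describe the libraries and follow in part from the size of each difference.

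The promoter windows of the members were searched for letters of Pbx and partner sites. Windows of 300 bases, from 250 before to 50 after an annotated start, were taken from RefSeq on GRCm38.p6 and matched 5 members by symbol with 7 starts: Kcnip4 and Slc4a4 with 2 each, and Cacna1e, Cacna2d1 and Chrm2. On both strands, TGATNNAT (the composite Pbx and Hox site, which also covers TGATTGAT) occurred in 2 of the 7 windows and in 8.85% of 32851 windows of the same length. TGATTGAT occurred in 0 of 7 and in 0.746% of all, and TGACAG (bound by the Pbx partners Meis and Prep) in 2 of 7 and in 19.2%. The windows that hold a match are shown with the second Kcnip4 start, which holds none, each 5′ to 3′ on the strand of the gene with matches in capitals. They lie at chr5:49285610-49285909 and chr5:48599633-48599932 (Kcnip4, minus strand), chr5:15934441-15934740 (Cacna2d1, plus strand) and chr6:36387834-36388133 (Chrm2, plus strand).
Kcnip4 upstream start: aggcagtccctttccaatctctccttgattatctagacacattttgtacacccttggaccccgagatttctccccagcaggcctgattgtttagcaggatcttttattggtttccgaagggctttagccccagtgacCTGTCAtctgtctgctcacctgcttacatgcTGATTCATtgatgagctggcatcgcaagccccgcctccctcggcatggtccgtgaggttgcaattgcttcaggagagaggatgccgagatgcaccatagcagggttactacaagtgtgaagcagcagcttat
Kcnip4 downstream start: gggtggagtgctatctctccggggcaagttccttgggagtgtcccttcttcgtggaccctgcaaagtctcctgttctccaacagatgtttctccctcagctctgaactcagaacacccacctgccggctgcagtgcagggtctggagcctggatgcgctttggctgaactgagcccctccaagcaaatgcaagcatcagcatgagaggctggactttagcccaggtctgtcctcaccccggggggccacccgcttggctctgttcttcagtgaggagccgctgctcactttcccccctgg
Cacna2d1: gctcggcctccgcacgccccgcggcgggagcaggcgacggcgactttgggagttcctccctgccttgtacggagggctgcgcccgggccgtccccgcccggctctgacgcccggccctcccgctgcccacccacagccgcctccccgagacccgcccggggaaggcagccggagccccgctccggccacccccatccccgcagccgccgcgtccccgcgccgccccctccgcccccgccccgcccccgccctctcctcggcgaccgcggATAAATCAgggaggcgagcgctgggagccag
Chrm2: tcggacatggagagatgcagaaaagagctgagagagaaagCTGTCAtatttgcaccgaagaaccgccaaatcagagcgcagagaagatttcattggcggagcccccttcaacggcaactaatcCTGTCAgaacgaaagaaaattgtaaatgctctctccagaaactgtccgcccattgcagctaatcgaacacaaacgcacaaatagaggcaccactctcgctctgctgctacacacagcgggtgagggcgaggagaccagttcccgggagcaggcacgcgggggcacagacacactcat

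At the upstream Kcnip4 start, TGATTCAT begins 82 bases before the start and CTGTCA, the reverse complement of TGACAG, 113 bases before it. Chrm2 holds CTGTCA at 210 and 127 bases before its start, and Cacna2d1 holds ATAAATCA, a match on the other strand, 19 bases after its start. A match is only a run of letters, the data do not say which start motor neurons use, and no match says only that these letters are not in the window.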

How the data were processed

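RNA of sorted E12.5 motor neurons was amplified as cDNA before library construction, per the labels' protocols. The submitters' processing notes name DESeq2 1.12.3, HTSeq 0.6.1p1, Bowtie 1.0.0 and Picard 1.88, and the builds NCBIM37 and mm9. No settings or strand use were found in the sources used here. The labels call the values CPM, but the library columns that the authors deposited hold a normalized signal that behaves as gene counts divided by 1 factor per library, since 100% of values were whole multiples of a library's step (tolerance 1e-06). The tables were scaled separately, so each fit stayed within a table, except the interaction, which compares 2 within-table differences. The authors also deposited log2 fold changes, test scores and p-values of their own comparisons.

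Values were taken as log2(normalized count + 0.5) without a filter and fitted with limma 3.58.1 (R 4.3.3) over each whole table, with Benjamini-Hochberg adjustment and a threshold of 0.05. The interaction used 12 libraries and the 30 genes of both mutant tables. The fits were tested on simulated data. Replicates differed by 3.81 to 19.1 chi-square per degree of freedom, so none was counted as a duplicate. The alternatives tried were centring, a variance trend, leaving out single libraries, a block for the letter, a minimum mean of 10, and 0.1 or 2 as pseudocount. Named genes are the members, listed genes of the fixed lists, and the 2 most alike genes per member and table, without predicted genes. Members and lists were chosen with earlier results of these data known. Python 3.11.15 with numpy 2.4.6, pandas 2.3.3 and matplotlib 3.10.9 did the rest.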

Additional observations from a re-analysis of the deposited data

How the results depend on the processing

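Pseudocounts, the minimum mean, the variance trend and the replicate block changed no call of a member (the minimum mean and the trend were not run for the interaction). With the replicate block, 3, 7 and 1 members and 64, 118 and 60 listed genes passed (control levels, thoracic mutant, brachial mutant). Libraries with the same letter did not deviate together throughout (correlations over genes from -0.49 to 0.31), so the letters were not taken as pairs. Centring each library on its median listed gene left 1, 2 and 0 members and 40, 52 and 20 of 64, 130 and 62 listed genes, split 24 higher and 16 lower, 27 and 25, and 13 and 7, against 23 and 40, 25 and 98, and 10 and 51 without it. It changed the sign of Kcnb2 (0.24) and Cacna2d1 (0.18), since it adds 0.71 to every thoracic difference. The reference is made of selected, mostly lower genes, so these changes are no check of the scaling. Leaving out 1 library gave 40 to 58 listed brachial genes, with 40 without control B. It ended only the calls of Kcnb2 and Chrm2 named above. The interaction for Kcnip4 ranged from -0.77 to -0.26 with 1 library left out and never passed. A count test on reads was not run, since the tables list too few low values to take the steps as reads. Low values limit Pkd2l1 most, with 22 steps in all over brachial controls and 26 over thoracic mutants.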

Other observations

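Further genes of channel-related families were in the tables but in none of the fixed lists, and they are named after their values were seen. Pex5l, which encodes a trafficking subunit of HCN channels, was higher in the thoracic mutant, against the direction of the 7 members. It read 150.5, 144.4 and 92.1 normalized counts in thoracic controls A, B and C and 204.2, 209.8 and 241.2 in mutants, which is 0.79 higher on the log2 scale (SE 0.22, limma adjusted p = 0.0119). Gsg1l, an auxiliary subunit of AMPA-type glutamate receptors, averaged 300.3 ± 60.8 in thoracic controls, against 164.7 ± 16.3 in thoracic mutants (SD, n = 3 each; log2 difference -0.85, SE 0.19, limma adjusted p = 0.00658). Tmc7, of the transmembrane channel-like family, averaged 233.7 ± 12.4 and 153.7 ± 26.5 (log2 difference -0.61, SE 0.17, limma adjusted p = 0.0108). Slc24a2, an exchanger of sodium for calcium and potassium, was higher in brachial than in thoracic controls, at 100.3 ± 33.3 against 49.7 ± 8.81 (log2 difference 0.97, SE 0.29, limma adjusted p = 0.0177).

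For Kcnip4 in the brachial mutant, the authors' deposited table gives a log2 fold change of -0.42, which is 0.31 times the log2 ratio of the group means. In the control-level and thoracic tables, the corresponding factors in the authors' deposited table lie between 0.995 and 1.004 for all members listed there. A reader who ranks Kcnip4 by the deposited columns would therefore place its brachial fall well under its thoracic one (-1.85 in the authors' deposited table), a gap that the normalized counts show as -1.31 against -1.81. The cause was not tested.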
